A study of Mus musculus with 33 samples.

Results

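The comparison described here is the last step of a fibrocartilage time course in culture, from 2.5 to 4 days of AGN 193109 (AGN), and it covers every gene of the count table. Its members are 6 of the 33 RNA-sequencing libraries, the 3 cultures labelled AGN at 4 days and the 3 labelled AGN at 2.5 days, which are culture D10 and D8.5. The mouse embryonic stem cells carried the ScxGFP reporter and were first taken to paraxial mesoderm (PM) by culture D6 with LDN-193189, an inhibitor of BMP receptors, and CHIR, an inhibitor of GSK3. To enhance this phase, the study's methods list the addition of either AGN or all-trans retinoic acid. In the study, retinoic acid given in this phase removed almost all later ScxGFP induction, and AGN raised the number of ScxGFP+ cells. The sources used here do not state which, if either, the cultures of these libraries received before D6, under AGN and CD1530 alike. From D6 all monolayers were given TGFβ1, the Smoothened agonist SAG and FGF2, so these factors were present in every group compared here. The fibrocartilage condition added AGN, which acts on retinoic acid receptors (RAR) as an inverse agonist, and the tendon condition added CD1530, which activates RARγ. Groups were 3 biological replicates each, with no strain, sex or clone given in the labels and no cell sort named for these libraries, so each holds the RNA of a whole culture. In such bulk samples, fewer cells of a type and less RNA per cell cannot be told apart.

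Fibrocartilage, the tissue of the meniscus, the annulus fibrosus and tendon insertions, combines the type I collagen of fibrous tissue with the type II collagen and aggrecan of cartilage. The transcription factor Sox9, together with Sox5 and Sox6, switches on the cartilage matrix genes, and Scx marks tendon and related progenitors. Retinoic acid receptors activate their target genes when bound by retinoic acid and hold them repressed when bound by an inverse agonist, and a loss of retinoid signalling is known to favour chondrogenesis.

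The 6 libraries held 38120841, 20123508 and 19438652 counts at 2.5 days and 17725489, 18366114 and 18450336 at 4 days. AGN replicate 1 at 2.5 days stood apart. Its total was above the 17116084 to 22775275 counts in the other 32 libraries, and 79.1% of its genes with 1 to 20 counts had an even count, against 47.7% to 53.8% in the other 32. It held 17 genes with a count of 1 and 70 with a count of 2. Its counts may therefore hold reads counted more than once, which was not tested, and an alternative with its counts halved was run for this reason. Without it 9416 genes were called, of which 9160 were among the 10168 called with it and in the same direction, and with its counts halved the numbers were 10009 and 9951. No list described here changed the sign of its median in either case. Each AGN library held the defining genes of fibrocartilage, with Col2a1, Acan, Sox9, Col1a1 and Scx detected in all 6. Detection alone does not set these libraries apart, since Col2a1, Acan and Scx were also detected in every PM and CD1530 library. Levels are given as CPM, which is a count scaled to library size after TMM. Changes are log2 fold changes (4 days over 2.5 days) from edgeR's quasi-likelihood test across all libraries, ± an approximate standard error. That error was derived as the absolute log2 fold change over the square root of the F statistic of the test.

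From 2.5 to 4 days 5125 of 17120 genes were higher (29.9%) and 5043 were lower (29.5%) at a Benjamini-Hochberg adjusted p under 0.05, 59.4% in all. Most of these changes were small, with a median absolute log2 fold change of 0.473 among called genes, and 1713 genes, 878 higher and 835 lower, changed by at least 1. The plot of change against level shows that the genes with large increases included abundant matrix genes such as Col1a1, Postn, Col2a1 and Eln, and that Dnmt3b, Mcm5 and Scx were among abundant genes that fell. Scaling by library size alone, without TMM, moved the median of all genes from −0.0126 to −0.113 and the split to 4041 higher and 6406 lower, so small decreases are stated relative to TMM scaling. At every count of list members below, the shares just given are the background for all genes.

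**Figure D1:**
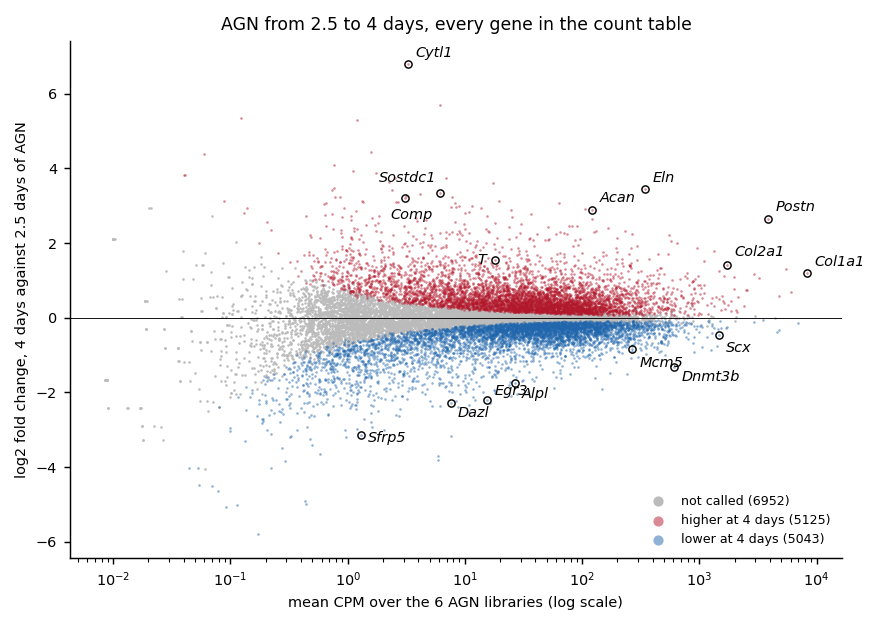
Log2 fold change from 2.5 to 4 days of AGN (vertical axis) against mean CPM over the 6 AGN libraries (horizontal axis, log scale) for each of 17120 genes, with higher genes in red, lower genes in blue and the 6952 that did not pass the test in grey. Named circles mark genes described in the text, with Cytl1 at a fitted 6.79 (2.5-day counts at the floor, a bound of at least 5.64), Eln at 3.44 and Acan at 2.89 among the increases.

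The cartilage matrix genes rose together over this step. All 8 measured cartilage collagen genes were higher, with a median log2 fold change of 1.56, against −0.0126 for all genes. Of 21 measured genes for other cartilage matrix proteins, 17 were higher, none was lower, and the median was 2.11. Summed over the list, the cartilage collagens stood at 1521 to 1561 CPM at 2.5 days and 4376 to 4569 CPM at 4 days, and the other matrix genes at 185 to 189 CPM at 2.5 days and 725 to 747 CPM at 4 days.

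Col2a1, the gene of type II collagen (chr15:97975602-98004695, minus strand, GRCm38), was at 948, 913 and 946 CPM at 2.5 days and 2545, 2529 and 2418 CPM at 4 days. All 4-day libraries were above all 2.5-day libraries, which agreed closely among themselves. The log2 fold change was 1.42 ± 0.042 (edgeR adjusted p = 7.03e-28). Acan, which encodes the proteoglycan aggrecan (chr7:79053483-79115099, plus strand), stood at 28.7, 29.4 and 28.8 CPM at 2.5 days and 203, 227 and 216 CPM at 4 days. The increase was 7.43-fold in the group means with no overlap between groups (2.89 ± 0.069, edgeR adjusted p = 3.53e-31). Col11a2 and Col11a1, whose chains join type II collagen in its fibrils, went from 15.4, 12.5 and 14.6 to 67.1, 69.1 and 68 CPM and from 224, 223 and 230.4 to 936, 954 and 902 CPM. Both sets of libraries were fully separated, with log2 fold changes of 2.25 ± 0.097 and 2.04 ± 0.051. The type IX collagen genes Col9a1, Col9a2 and Col9a3, for chains on the fibril surface, rose by 1.39, 1.40 and 1.69, and Col27a1 by 0.92. Col10a1, the collagen of hypertrophic cartilage, was low throughout, at 0.379, 0.255 and 0.212 CPM at 2.5 days and 1.38, 1.57 and 1.49 CPM at 4 days. Its libraries did not overlap either (2.27 ± 0.36, edgeR adjusted p = 1.09e-06).

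Among the other matrix genes, Hapln1, the link protein that fixes aggrecan to hyaluronan, was at 8.5, 9.78 and 8.95 CPM at 2.5 days and 38.4, 39.9 and 38.3 CPM at 4 days (2.11 ± 0.091, edgeR adjusted p = 1.44e-22). Chad, encoding chondroadherin, was at 21.7, 21 and 22.8 CPM at 2.5 days and 111, 110.3 and 102 CPM at 4 days (2.30 ± 0.088). Both genes were higher in each 4-day library than in any 2.5-day library. Matn4, a matrilin, rose by 2.08 ± 0.082, Cilp by 2.12 ± 0.081, Comp, the cartilage oligomeric matrix protein, by 3.22 ± 0.23, and Prg4, which encodes lubricin of the joint surface, by 1.17 ± 0.13. Cytl1, a secreted factor of cartilage, had 2, 0 and 2 counts at 2.5 days and 92, 92 and 139 counts at 4 days. Its 2.5-day libraries lay at or under the floor of 3 counts each, so its increase is given as at least 49.7-fold. Of the other measured members, Matn3, Ucma, Otor, Chadl, Hapln3, Susd5, Clec3a, Scrg1 and Cnmd rose by between 0.35 and 3.63, and Epyc, Matn2, Cilp2 and Wfdc1 did not pass the test. Matn3 lost its call without AGN replicate 2 at 2.5 days (0.29) or at 4 days (0.28), and Epyc gained one without either of the same libraries (0.33 and 0.30). Exons of Epyc overlap the gene Gm10754 on the other strand over 0.406 of their length, and the strand setting of the counts is not stated, so its reads and those of Gm10754 cannot be told apart.

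Chondrogenic transcription factors rose as well, by smaller amounts. Of 20 chondrogenic regulators 14 were higher and 1 was lower, with a median of 0.48. Sox9 was at 118, 107 and 117 CPM at 2.5 days and 151, 144 and 133 CPM at 4 days. Each 4-day value exceeded each 2.5-day value, by a small margin (0.32 ± 0.048, edgeR adjusted p = 2.06e-07). Its partners Sox5 and Sox6 rose by 0.61 ± 0.097 and 0.50 ± 0.087, Trps1 by 0.92 ± 0.076, Foxc1 by 0.93 ± 0.05 and Nkx3-2 by 0.45 ± 0.11. Pax1 and Pax9, regulators of the sclerotome from which the axial skeleton forms, did not pass the test (0.11 ± 0.10 and 0.072 ± 0.096). Among 17 sclerotome and somite factors, 9 were higher and 5 lower, and the somite genes Meox1, Uncx and Tcf15 were among those that fell (−0.86, −1.23 and −1.47).

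The same interval with CD1530 gave the comparison with the tendon condition. There 4686 genes were higher (27.4%) and 5120 lower (29.9%), 57.3% in all. The difference between the steps of the 2 conditions was tested as an interaction, which was called for 26.8% of genes, 14.1% with the more positive change under AGN and 12.7% with the more negative. Of the 8 cartilage collagens 6 had an interaction in the positive direction and 1 in the negative, and of the 21 other cartilage matrix genes 15 were positive and none negative. Under CD1530, Col2a1 fell (−1.05 ± 0.044), giving an interaction of 2.46 ± 0.061 (edgeR adjusted p = 1.80e-29). Acan went from 6.34 ± 0.642 to 4.66 ± 0.674 CPM (mean ± SD, n = 3), and its interaction was 3.34 ± 0.15 (edgeR adjusted p = 6.27e-21). Hapln1, Col9a1 and Col9a3 also fell under CD1530 while they rose under AGN, with interactions of 3.53, 2.82 and 2.30. In contrast Col27a1 rose more under CD1530 (interaction −0.30), and Col10a1 rose in both (2.27 and 2.17), with no interaction called (0.096 ± 0.43). Sox9 fell (−0.17) under CD1530 and its interaction was 0.49 ± 0.07.

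**Figure D2:**
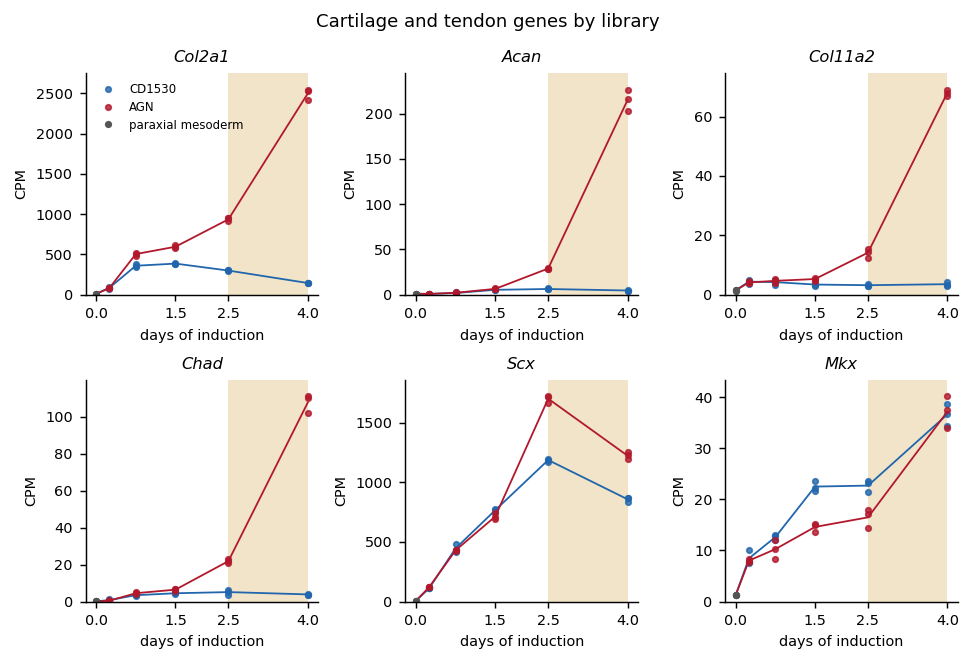
Levels in CPM (vertical axes, from 0) of 6 genes in each library against days of induction, with AGN in red, CD1530 in blue, paraxial mesoderm in grey, lines through group means and the 2.5 to 4 day interval shaded. Col2a1, Acan, Col11a2 and Chad climb under AGN within the shaded interval while their CD1530 libraries are lower at both times, and Scx falls in both conditions.

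The step before, from 1.5 to 2.5 days of AGN, shares the 2.5-day libraries, so its values are set side by side and not tested against these. It called 42.1% of genes, 21.4% higher and 20.6% lower, over 1 day rather than 1.5 days. The median over the cartilage collagens was 1.18 in that step and 1.56 in the last, and over the other matrix genes 0.99 and 2.11. Col9a1 and Hapln1 had log2 fold changes of 0.14 ± 0.049 and 0.033 ± 0.11 in the earlier step and 1.39 ± 0.047 and 2.11 ± 0.091 in the last. Matn4 had 2.54 ± 0.11 and then 2.08 ± 0.082, and Comp −1.63 ± 0.27 and then 3.22 ± 0.23.

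Genes of cartilage hypertrophy and bone included large changes in both directions. Of 16 measured, 10 were higher and 3 lower, with a median of 0.47. Runx2, a regulator of hypertrophic chondrocytes and osteoblasts, was at 13.7, 12.2 and 13.4 CPM at 2.5 days and 43.1, 41.4 and 42.2 CPM at 4 days. It was 3.21-fold higher at 4 days with well separated groups (1.68 ± 0.097, edgeR adjusted p = 1.90e-18). Sp7, the osteoblast factor osterix, was at 1.62, 1.53 and 1.38 CPM at 2.5 days and 3.94, 4.34 and 3.68 CPM at 4 days, low in all libraries but without overlap (1.38 ± 0.19). Alpl, the alkaline phosphatase of mineralizing cells, was at 40.9, 39.9 and 42.6 CPM at 2.5 days and 10.6, 12.9 and 13 CPM at 4 days, lower in each 4-day library (−1.76 ± 0.06, edgeR adjusted p = 5.41e-26). Ibsp fell (−0.52). Pthlh and its receptor Pth1r, which hold back hypertrophy, rose by 0.83 ± 0.15 and 0.71 ± 0.062. Under CD1530 9 of the 16 were higher and 2 lower, and 2 interactions with condition were positive and 5 negative (median −0.0927). The positive ones were those of Runx2 and Sp7 (1.18 ± 0.15 and 1.55 ± 0.43), and Alpl fell under CD1530 as well (−1.42).

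Most tendon genes rose over the same interval, and Scx fell. Of 15 measured tendon regulators and markers 13 were higher and 1 was lower, and the median was 1.19. Scx (chr15:76457452-76459458, plus strand) was at 1716, 1720.4 and 1667 CPM at 2.5 days and 1249.9, 1194 and 1225 CPM at 4 days. Every 4-day library lay below every 2.5-day library (−0.48 ± 0.038, edgeR adjusted p = 4.95e-14). The fall was −0.47 ± 0.039 under CD1530, and the interaction of −0.0073 ± 0.054 did not pass the test. Mkx, a homeobox gene needed for collagen fibril growth in tendon, was at 14.4, 17.2 and 17.8 CPM at 2.5 days and 37.5, 33.9 and 40.2 CPM at 4 days, and Tnmd, tenomodulin, at 3.85, 5.2 and 4.82 CPM at 2.5 days and 10.9, 10.7 and 9.56 CPM at 4 days. Both were higher at 4 days without overlap, by 1.19 ± 0.089 and 1.19 ± 0.19. Fmod, encoding fibromodulin, was at 598, 612 and 611 CPM at 2.5 days and 2192, 2078 and 1991 CPM at 4 days (1.78 ± 0.058). Aqp1, a water channel gene, was at 16, 17.2 and 15 CPM at 2.5 days and 87, 88.9 and 85 CPM at 4 days under AGN and fell under CD1530, from 3.78 ± 0.361 to 2.28 ± 0.482 CPM (mean ± SD, n = 3; interaction 3.15 ± 0.19). Across the tendon list 8 genes had a positive interaction and 2 a negative one, and Egr1, which rose by 0.21 under AGN and 1.32 under CD1530, was among the latter (−1.11 ± 0.072).

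The genes of fibrous matrix rose in most cases. Of 12 fibrillar and fibril-associated collagens 10 were higher, 1 was lower, and the median was 0.72. Col1a1 and Col1a2, the chains of type I collagen, went from 5240.2, 4819 and 5143 to 11724, 11898 and 10926 CPM and from 3164, 3102 and 3186 to 7831, 7892 and 7626 CPM, with no overlap between groups (1.18 ± 0.099 and 1.30 ± 0.072). Their interactions with condition did not pass the test (0.057 ± 0.14 and 0.22 ± 0.10). Col3a1 rose by 0.57 ± 0.041, and Col5a3 fell (−0.35 ± 0.11), though not past the threshold without AGN replicate 1 at 4 days (−0.28). Per kilobase of exon, the mean levels at 4 days were 1755 CPM for Col1a1, 768 for Postn, 609 for Scx, 270.2 for Col2a1 and 28.8 for Acan. Postn, encoding periostin, was at 1049.8, 1060.1 and 1069 CPM at 2.5 days and 6844, 6746 and 6451 CPM at 4 days. It was 6.3-fold higher at 4 days (2.66 ± 0.087, edgeR adjusted p = 2.20e-18), and more so than under CD1530 (interaction 0.98 ± 0.12). Of 15 matricellular genes 12 were higher and none lower (median 0.76), with Thbs2 at 1.53, Sparc at 1.07 and the fibronectin gene Fn1 at 0.70.

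Elastic fibre genes also rose in most cases. Of 16 measured 14 were higher and 1 was lower, with a median of 0.92. Eln, the elastin gene, was at 56.3, 60.9 and 57.7 CPM at 2.5 days and 653, 626 and 617 CPM at 4 days. All 4-day libraries exceeded all 2.5-day libraries by a wide margin (3.44 ± 0.051, edgeR adjusted p = 3.70e-38), and Eln rose from 182 ± 2.2 to 1571 ± 26.2 CPM under CD1530 (mean ± SD, n = 3; 3.11 ± 0.049). Fbln5, which organizes elastin on microfibrils, rose by 2.32 ± 0.053 and the microfibril gene Mfap4 by 1.57 ± 0.044, while Mfap5 fell (−0.74 ± 0.25). Mfap5 did not pass without AGN replicate 1 at 2.5 days (−0.57). Among small leucine-rich proteoglycans, which bind collagen fibrils, 10 of 11 were higher and none lower (median 1.19). Aspn was at 2.41, 3.52 and 1.8 CPM at 2.5 days and 20.4, 20.1 and 20.5 CPM at 4 days (2.99 ± 0.17), and Ogn, Prelp, Bgn, Dcn and Lum rose by 1.71, 1.25, 1.08, 0.85 and 0.61. Here the conditions parted within the family, with 6 positive interactions and 4 negative ones. Aspn, Chad, Prelp and Bgn had positive interactions (1.09, 2.72, 0.55 and 0.44), and Dcn, Lum, Ogn and Podn had negative ones (−0.48, −0.38, −0.22 and −1.94).

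Of 22 genes for collagen folding and export 21 were higher and none lower, with a median of 0.77. The prolyl 4-hydroxylase subunit P4ha2 was at 129, 119.6 and 119.8 CPM at 2.5 days and 481, 466 and 452 CPM at 4 days, separated in full (1.92 ± 0.076). P3h3, Plod1, P4ha1 and Serpinh1, the collagen chaperone Hsp47, rose by 1.47, 1.34, 1.17 and 0.76. Lox, which crosslinks collagen and elastin, was at 259, 244 and 271 CPM at 2.5 days and 1054, 1034 and 1025 CPM at 4 days and rose in both conditions (2.01 ± 0.11 and, with CD1530, 2.28 ± 0.11). Of 22 genes of the unfolded protein response 11 were higher and 2 lower, but the median was 0.11 and 0.00602 when scaled by library size alone. The endoplasmic reticulum chaperones Pdia3, Hsp90b1 and Calr rose by 0.52, 0.45 and 0.44, and Asns fell (−0.54). Under CD1530 this list had 6 higher and 10 lower, and its interactions were 15 positive and none negative. Basement membrane genes had 15 of 19 higher and none lower, with Lamb2 at 1.50 and the type IV collagen genes Col4a1 and Col4a2 at 0.31 and 0.44, and 8 of their interactions were negative and 3 positive. Among 25 matrix proteases and inhibitors 19 were higher and 5 lower. Htra1 and Adamts15 had the largest increases of that list, 2.33 ± 0.071 and 2.27 ± 0.064, and Mmp9 the largest decrease, −0.73 ± 0.04.

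**Figure D3:**
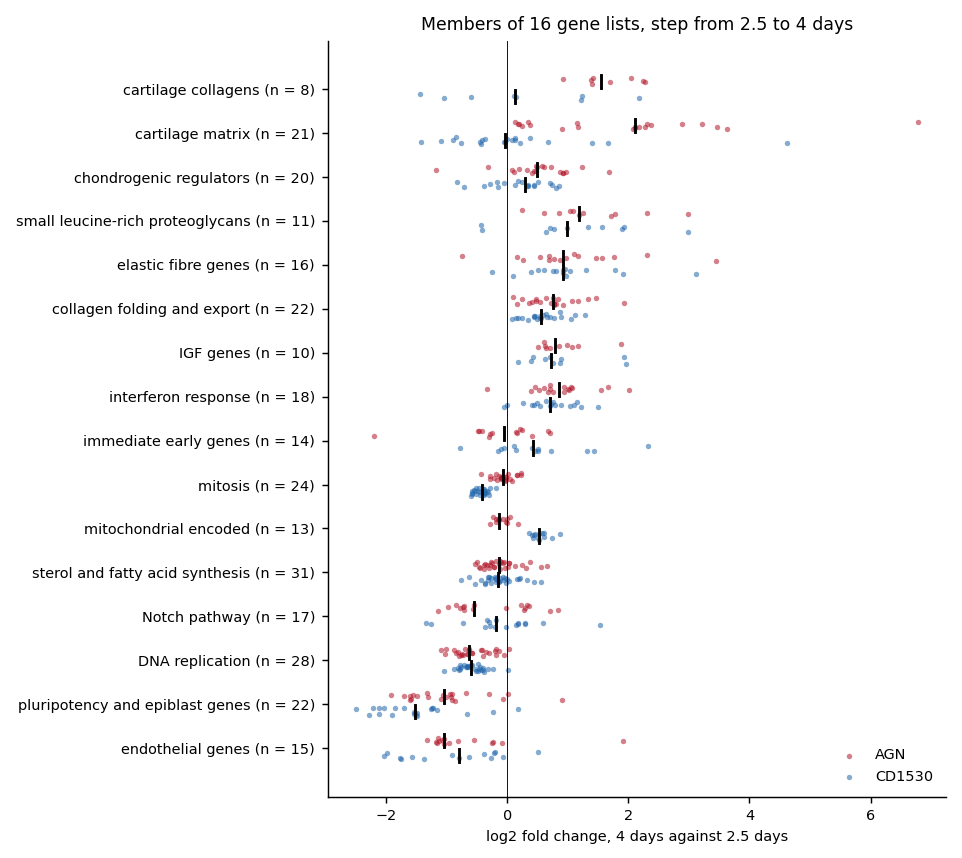
Log2 fold change from 2.5 to 4 days (horizontal axis) of each measured member of 16 gene lists, with AGN in red, CD1530 in blue and black bars at list medians. Cartilage lists lie to the right under AGN with medians of 1.56 and 2.11 but near 0 under CD1530 (0.13 and −0.041), and the mitosis and mitochondrial lists lie apart between conditions.

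Hedgehog signalling, which SAG activates in every group, had 8 of 16 genes higher and 3 lower (median 0.36). Hhip, a target and inhibitor of the pathway, was at 22.5, 23.6 and 25.4 CPM at 2.5 days and 128, 130.4 and 132 CPM at 4 days. It rose without overlap (2.45 ± 0.081, edgeR adjusted p = 3.86e-26), as did Ptch1 (1.24 ± 0.076) and Gli1 (0.96 ± 0.066), both direct targets. Under CD1530 11 of the 16 genes were higher and 1 was lower (median 0.348). Ptch1 rose less under CD1530 (0.20, interaction 1.04 ± 0.11), and 5 interactions of the list were positive and 3 negative. Gas1 fell (−0.56), and the ligand gene Shh was low and fell from 4.41, 4.43 and 4.61 to 3, 3.13 and 2.79 CPM. Of 20 TGF-β pathway genes 12 were higher and 2 lower, with a median of 0.18 that dropped to 0.0821 with library-size scaling. Tgfb2 and Tgfb3 rose by 0.70 and 0.60, and Tgfb1 fell (−0.57).

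Of 31 measured BMP signalling genes, 21 were higher and 1 lower, with a median of 0.48, against 17 and 5 under CD1530, and 13 interactions were positive and 6 negative. Among ligands, Bmp4 and Bmp7 rose by 0.83 ± 0.047 and 1.10 ± 0.065 and Bmp2 did not pass (−0.052 ± 0.073). The antagonist Sostdc1 had the largest increase of the list. It was at 0.975, 1.27 and 1.11 CPM at 2.5 days and 11.9, 10.3 and 11.5 CPM at 4 days, near 1 CPM in the earlier libraries and over 10 CPM in the later ones (3.35 ± 0.23, edgeR adjusted p = 2.26e-16). Chrdl1, a chordin-like antagonist, was at 70.5, 74.4 and 75 CPM at 2.5 days and 336, 314 and 316 CPM at 4 days, again without overlap (2.14 ± 0.049). Neither rose under CD1530, where Sostdc1 had −0.54 ± 0.43 and did not pass and Chrdl1 fell (−0.13), and both interactions were called (3.88 ± 0.50 and 2.27 ± 0.073). Grem1 was the member that fell (−0.25 ± 0.072). The receptor Bmpr1b, the mediator Smad9 and the target Id1 rose by 1.11, 1.90 and 1.35, with interactions of 1.15, 1.98 and 1.28.

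FGF pathway genes split into 10 higher and 10 lower of 26. The 10 increases were all in ligands and receptors. Fgf18, a growth factor for chondrocytes, was at 7.34, 7.29 and 5.4 CPM at 2.5 days and 47.5, 42.2 and 43.2 CPM at 4 days (2.71 ± 0.11, edgeR adjusted p = 2.55e-23), with the later libraries all above 40 CPM, and Fgfr2 and Fgfrl1 rose by 1.29 and 1.20. The feedback and target genes Dusp6, Spry1, Spry2, Spry4, Etv4 and Etv5 all fell, with log2 fold changes of −0.39, −0.26, −0.63, −0.78, −0.66 and −1.05. Etv5 was at 261, 252 and 244 CPM at 2.5 days and 121, 122 and 123 CPM at 4 days. Those values do not overlap. These 6 genes had the 6 negative interactions of the list, between −0.27 and −0.73, and 13 interactions were positive (median of the list 0.325). Fgf4, a ligand of pluripotent and early mesodermal cells, fell (−1.63).

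In the Wnt pathway 23 of 36 genes were higher and 6 lower (median 0.40). Rspo3, which amplifies Wnt signals, was at 6.36, 8 and 8.58 CPM at 2.5 days and 43.9, 39.6 and 36.5 CPM at 4 days (2.42 ± 0.09), and the inhibitors Wif1, Dkk3, Sfrp1 and Dkk2 rose by 2.23, 1.87, 1.39 and 1.28. Axin2, a common target, rose by 0.43, while the nuclear mediators Lef1 and Tcf7 and the inhibitor Sfrp5 fell (−1.16, −0.32 and −3.13). Under CD1530 24 of the 36 Wnt genes were higher and 8 lower (median 0.607), and 8 interactions were positive and 10 negative. Notch genes had 6 of 17 higher and 9 lower (median −0.55), with the ligands Dll1 and Dll4 and the receptor Notch4 at −0.98, −0.85 and −1.13, and Notch2 at 0.84. All 10 IGF genes were higher (median 0.78, and 9 of 10 under CD1530), among them Igf1 at 1.07 and Igfbp5 at 1.17. Igf2 rose by 1.87, but other annotated genes overlap 0.628 of its exon length, so its value is uncertain.

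Genes of retinoid handling, the pathway on which AGN acts, rose in most cases that passed the test. Of 21 measured, 13 were higher and 2 lower, with a median of 0.31. Crabp2, a retinoic acid carrier, was at 17.1, 16.1 and 16.8 CPM at 2.5 days and 51.5, 50.2 and 48.8 CPM at 4 days and rose without overlap (1.59 ± 0.08). Dhrs3, a known target, was at 3.55, 3.67 and 3.87 CPM at 2.5 days and 8.19, 7.95 and 6.95 CPM at 4 days. Stra6, another target and the retinol transporter, was at 5.47, 7.74 and 6.83 CPM at 2.5 days and 11.7, 11.3 and 10.5 CPM at 4 days. Both rose without overlap (1.07 ± 0.12 and 0.78 ± 0.11). Under CD1530 Dhrs3 went from 122 ± 4.29 to 236 ± 2.36 CPM and Stra6 from 138 ± 5.78 to 384 ± 0.683 CPM (mean ± SD, n = 3). Cyp26a1, the retinoic acid degrading enzyme, was at 3.49, 4.08 and 3.71 CPM at 2.5 days and 2.75, 2.35 and 2.26 CPM at 4 days. It fell under AGN (−0.60 ± 0.13) and rose under CD1530 (0.86 ± 0.047), an interaction of −1.46 ± 0.14 (edgeR adjusted p = 4.09e-11). Of the 21 interactions of the list 8 were positive and 4 negative. The receptor genes Rarg, Rara and Rxra rose by 0.64, 0.31 and 0.69.

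Homeobox genes of limb and skull mesenchyme moved in a few members. Of 20 genes of the Dlx, Alx, Msx and Prrx families and their companions 7 were higher, 3 lower and 10 not called. Dlx5 was at 11.7, 14.9 and 14.4 CPM at 2.5 days and 59, 59.6 and 57.9 CPM at 4 days, and Alx4 at 5.31, 4.99 and 5.61 CPM at 2.5 days and 29.1, 31.1 and 31.4 CPM at 4 days. Both were fully separated, by 2.12 ± 0.12 and 2.52 ± 0.11, and both had interactions with condition of 1.91 ± 0.23 and 2.18 ± 0.18, 2 of the 6 positive interactions of the list against 1 negative. Prrx1 rose by 1.16 ± 0.057 and Msx1 fell (−1.29). Erg, an ETS factor of joint cartilage and of endothelium, was at 33.8, 35.1 and 37 CPM at 2.5 days and 132, 134 and 133 CPM at 4 days (1.92 ± 0.063, edgeR adjusted p = 2.40e-26), while 13 of the other 14 endothelial genes fell. Of 13 nuclear factor I and late fate timing genes 4 were higher and 8 lower under AGN, and 5 and 8 under CD1530 (medians −0.296 and −0.299). Nfix, Nfia and Nfib, nuclear factor I genes that mark later embryonic stages, rose by 1.61, 1.31 and 0.88, and the early-stage RNA-binding genes Lin28a, Lin28b, Igf2bp1 and Trim71 fell (−0.86, −0.68, −0.74 and −1.02).

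DNA replication genes fell in both conditions, and fewer mitosis genes fell under AGN than under CD1530. Of 28 replication genes 25 were lower and none higher, with a median of −0.63 under AGN and −0.59 under CD1530, where 27 were lower. Mcm5, a subunit of the replicative helicase, was at 348, 352 and 336 CPM at 2.5 days and 196, 188 and 194 CPM at 4 days. Every 4-day library lay below every 2.5-day one (−0.84 ± 0.031, edgeR adjusted p = 9.34e-25). Mcm3 fell from 343, 329 and 331 to 202, 193 and 195 CPM (−0.77 ± 0.033), and the loading factors Cdc6 and Cdc45 fell (−1.09 and −0.58). Of 24 mitosis genes 3 were higher, 9 lower and 12 not called under AGN, with a median of −0.07, against 23 lower and none higher under CD1530, with a median of −0.42. Cdk1, the kinase that drives entry into mitosis, was at 147, 154 and 144 CPM at 2.5 days and 134, 140.5 and 139.6 CPM at 4 days, a small fall (−0.10 ± 0.044, edgeR adjusted p = 0.0424). Cdk1 did not pass without AGN replicate 1 (−0.11) or 2 (−0.074) at 2.5 days or replicate 1 (−0.083) or 3 (−0.11) at 4 days, nor with DESeq2 (−0.069) or the likelihood ratio test. Under CD1530 it went from 151 ± 5.26 to 105 ± 1.97 CPM (mean ± SD, n = 3; −0.53 ± 0.045), an interaction of 0.43 ± 0.063 (edgeR adjusted p = 1.01e-06). Ccnb2, cyclin B2, was at 92.5, 95.6 and 88.8 CPM at 2.5 days and 93.7, 92.1 and 92.3 CPM at 4 days and did not pass (0.0059 ± 0.049), with −0.47 ± 0.05 under CD1530 and an interaction of 0.47 ± 0.07. In all 21 of 24 mitosis genes had a positive interaction and none a negative one, against 3 and 4 of 28 replication genes. The split depends on scaling for the AGN step itself, since library-size scaling gave 1 higher and 16 lower mitosis genes.

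The promoters of 2 genes from each list are shown because replication and mitosis genes are known to carry different motifs near their start sites. The windows run from 250 bases before to 50 bases after the start (RefSeq, GRCm38.p6), and capitals mark the E2F motif (TTTCCCGC or TTTGGCGC) in Mcm3 (chr1:20820263-20820562, minus strand) and Mcm5 (chr8:75109259-75109558, plus strand), and the CHR motif (TTTGAA) in Cdk1 (chr10:69352863-69353162, minus strand) and Ccnb2 (chr9:70421505-70421804, minus strand), on either strand.
Mcm3: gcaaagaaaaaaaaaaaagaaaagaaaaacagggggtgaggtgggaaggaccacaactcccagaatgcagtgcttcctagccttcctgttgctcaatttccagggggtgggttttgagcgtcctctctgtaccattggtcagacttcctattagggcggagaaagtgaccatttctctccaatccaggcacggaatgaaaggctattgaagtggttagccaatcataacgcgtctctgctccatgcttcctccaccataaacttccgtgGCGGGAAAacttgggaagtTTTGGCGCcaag
Mcm5: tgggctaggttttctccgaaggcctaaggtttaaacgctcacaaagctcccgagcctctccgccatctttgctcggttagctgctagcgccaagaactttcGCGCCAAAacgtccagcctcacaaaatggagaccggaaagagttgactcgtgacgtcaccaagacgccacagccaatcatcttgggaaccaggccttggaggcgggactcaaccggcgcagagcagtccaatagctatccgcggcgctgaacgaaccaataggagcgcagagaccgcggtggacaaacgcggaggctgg
Cdk1: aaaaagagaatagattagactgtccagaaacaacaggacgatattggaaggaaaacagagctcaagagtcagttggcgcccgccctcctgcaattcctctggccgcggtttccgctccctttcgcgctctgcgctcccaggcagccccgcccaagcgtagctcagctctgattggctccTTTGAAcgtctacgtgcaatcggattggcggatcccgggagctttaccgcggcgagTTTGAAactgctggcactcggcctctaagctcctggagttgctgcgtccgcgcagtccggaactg
Ccnb2: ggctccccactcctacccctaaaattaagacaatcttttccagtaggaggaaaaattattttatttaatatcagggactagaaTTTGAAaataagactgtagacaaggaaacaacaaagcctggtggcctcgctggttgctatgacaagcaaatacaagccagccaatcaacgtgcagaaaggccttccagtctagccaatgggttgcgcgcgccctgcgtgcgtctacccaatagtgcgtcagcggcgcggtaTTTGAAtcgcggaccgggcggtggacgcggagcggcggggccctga
Of 22 replication genes matched to a promoter, 8 held the E2F letters (36.4%), against none of 20 mitosis genes and 1.8% of all 27025 genes with a promoter. A gene was counted if any of its promoters held the letters. Of the 20 mitosis genes 15 held the CHR letters (75%), against 3 of the 22 replication genes (13.6%) and 20.2% of all. The letters of a SOX site (ACAAAG), searched on both strands in the promoters of the cartilage lists, were in 1 of 6 cartilage collagen genes (16.7%) and 1 of 15 other cartilage matrix genes (6.67%), against 21% of all. The counts describe letters in the windows and not bound sites.

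Cell cycle regulators moved in both directions. Of 16 D cyclins, CDK inhibitors and related genes 10 were higher and 4 lower. The inhibitor genes Cdkn2c and Cdkn1b rose by 1.35 ± 0.10 and 0.68 ± 0.041, and Cdkn1b did not pass under CD1530 (−0.023 ± 0.043, interaction 0.70 ± 0.06). Cdkn1a, which encodes p21, was at 257, 265 and 263 CPM at 2.5 days and 372, 391 and 372 CPM at 4 days, higher in each 4-day library (0.53 ± 0.045) but with a larger rise under CD1530 (0.91 ± 0.045, interaction −0.38 ± 0.063). Mycn was at 120.0, 119 and 113 CPM at 2.5 days and 39.3, 43.3 and 40.5 CPM at 4 days and fell (−1.52 ± 0.047, edgeR adjusted p = 1.87e-27), much more than under CD1530 (−0.27, interaction −1.25 ± 0.069). Ccnd1 fell under AGN and rose under CD1530 (−0.38 and 0.76). Of 16 p53 target genes 12 were higher and 2 lower under AGN (median 0.27), 15 and 1 under CD1530 (median 0.58), and 12 had negative interactions against 1 positive. Perp rose by 0.31 and 1.45 in the 2 conditions and Ccng1 by 0.42 and 0.96. Immediate early genes showed 6 higher and 6 lower of 14 under AGN and 9 and 2 under CD1530, with 10 negative interactions and none positive. Jun was at 195, 205 and 202 CPM at 2.5 days and 144, 148 and 146 CPM at 4 days under AGN (−0.46 ± 0.038) and rose under CD1530 (0.46 ± 0.037), and Egr3 fell from 23.7, 25.5 and 27.5 to 5.94, 5.3 and 5.35 CPM (−2.20 ± 0.089).

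All 13 mitochondrially encoded genes rose under CD1530 (median 0.52), and under AGN 1 of them, mt-Cytb, was lower (−0.28 ± 0.11) and 12 did not pass the test (median −0.14). The mt-Cytb call was lost with DESeq2's size factors (−0.25), without AGN replicate 1 or 3 at 2.5 days (−0.25 and −0.28) and without AGN replicate 2 or 3 at 4 days (−0.285 and −0.24). Their sum was 8834 to 9498 CPM at 2.5 days and 8263 to 9237 CPM at 4 days under AGN, and 7495 to 7835 CPM at 2.5 days and 10360.0 to 11480.0 CPM at 4 days under CD1530. Of the 13 interactions 12 were negative. Of 88 cytosolic ribosomal protein genes 55 were lower and 1 higher under AGN, with a median of −0.19, and 73 were lower and 2 higher under CD1530. Library-size scaling put the AGN count at 71 lower and none higher.

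**Figure D4:**
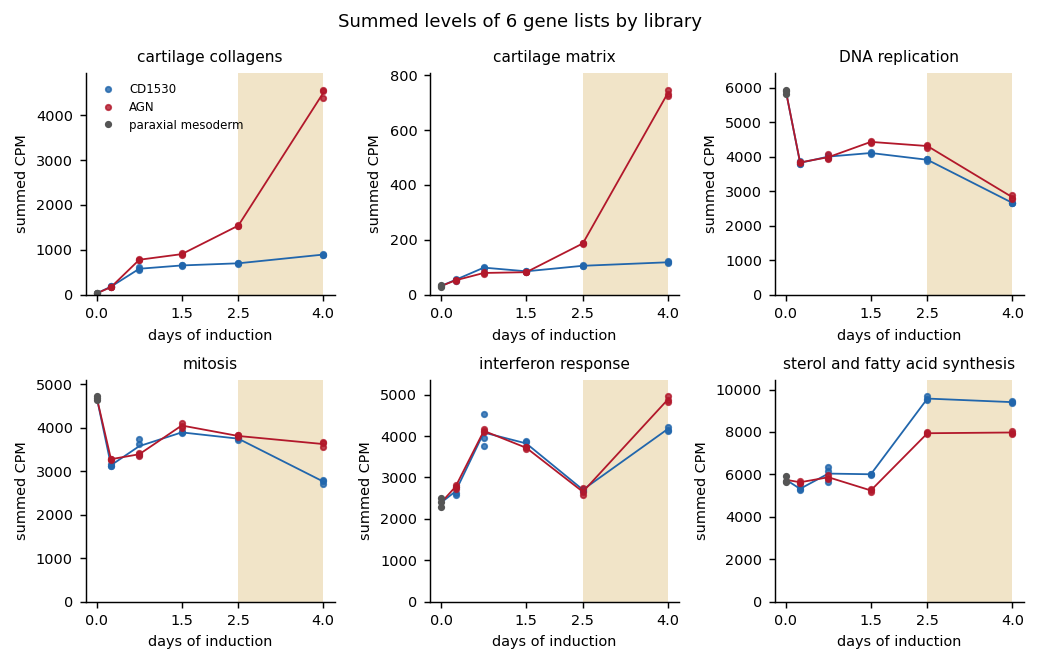
Summed CPM (vertical axes, from 0) of the members of 6 gene lists in each library against days of induction, with AGN in red, CD1530 in blue, paraxial mesoderm in grey, lines through group means and the 2.5 to 4 day interval shaded. Within the shaded interval the cartilage sums climb under AGN, replication falls and the interferon sum rises in both conditions, and mitosis stands at 3705 to 3772 CPM at 2.5 days and 2711 to 2796 CPM at 4 days under CD1530 against 3781 to 3823 CPM at 2.5 days and 3554 to 3672 CPM at 4 days under AGN.

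Interferon response genes rose in both conditions after falling in the step before. Of 18 measured 17 were higher and 1 was lower under AGN, with a median of 0.85, 16 were higher under CD1530 (median 0.71), and from 1.5 to 2.5 days of AGN 1 had been higher and 17 lower (median −0.48). The summed level was 2580.0 to 2734 CPM at 2.5 days and 4823 to 4960.0 CPM at 4 days under AGN. Isg15, a ubiquitin-like protein of the antiviral response, was at 241, 264 and 227 CPM at 2.5 days and 409, 406 and 428 CPM at 4 days, and each 4-day library was above each 2.5-day one (0.76 ± 0.062, edgeR adjusted p = 1.00e-11). Irf7, which amplifies the response, was at 69.9, 74 and 68.7 CPM at 2.5 days and 221, 198 and 201 CPM at 4 days (1.54 ± 0.049), and Ifit3 at 65.2, 64.4 and 59.1 CPM at 2.5 days and 134, 134 and 129 CPM at 4 days (1.07 ± 0.048). Both were fully separated. Of the 18 interactions 8 were positive and 4 negative. Psmb9, an immunoproteasome subunit, was at 4.22, 5.2 and 3.87 CPM at 2.5 days and 17.3, 19.3 and 16.6 CPM at 4 days (2.01 ± 0.12, interaction 0.97 ± 0.18), and the class I genes H2-K1 and B2m rose by 1.05 and 1.03, with interactions of 0.79 and 0.59. Ifit1, Ifit2 and Ifit3 had negative interactions (−0.50, −0.75 and −0.44), and Irf1 was the member that fell (−0.33 ± 0.054).

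The promoters of Isg15 (chr4:156200769-156201068, minus strand) and Ifit3 (chr19:34583279-34583578, plus strand) are shown because such genes are known to carry a shared element, the interferon-stimulated response element (ISRE). Capitals mark matches to TTTC, any 2 bases and TTTC on either strand, which can overlap, in the same windows of RefSeq, GRCm38.p6.
Isg15: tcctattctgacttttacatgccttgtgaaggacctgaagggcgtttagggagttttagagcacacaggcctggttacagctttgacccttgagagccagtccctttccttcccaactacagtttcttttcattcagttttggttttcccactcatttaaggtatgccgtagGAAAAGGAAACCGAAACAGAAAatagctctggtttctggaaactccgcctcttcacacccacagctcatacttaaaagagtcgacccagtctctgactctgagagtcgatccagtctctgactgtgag
Ifit3: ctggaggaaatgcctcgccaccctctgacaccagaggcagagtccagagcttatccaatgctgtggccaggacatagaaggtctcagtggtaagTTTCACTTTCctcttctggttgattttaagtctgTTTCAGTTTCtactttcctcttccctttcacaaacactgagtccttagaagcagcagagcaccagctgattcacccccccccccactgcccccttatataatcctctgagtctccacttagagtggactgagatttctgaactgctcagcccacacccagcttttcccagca
The letters were found in 8 of 17 members matched to a promoter (47.1%) and in 3.99% of all genes with a promoter.

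Sterol and fatty acid synthesis genes, which had risen before, levelled off or fell. Of 31 measured 5 were higher and 17 lower (median −0.13), and in the step before 30 had been higher and none lower. Sqle, squalene epoxidase, was at 303, 301 and 295 CPM at 2.5 days and 211, 204 and 207 CPM at 4 days, lower in each 4-day library (−0.53 ± 0.032). Scd2 rose by 0.55 ± 0.036. Glycolysis and hypoxia genes had 22 of 27 higher and none lower, by small amounts (median 0.27, or 18 higher and 2 lower with library-size scaling). Vegfa and Car9, both hypoxia targets, rose by 1.10 ± 0.049 and 1.96 ± 0.19, and the enzymes Tpi1 and Pgk1 by 0.48 and 0.52.

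Pluripotency and epiblast genes were still present at 2.5 days and fell. Of 22 measured 19 were lower and 1 higher, with a median of −1.04, and their sum was 3077 to 3166 CPM at 2.5 days and 1389 to 1426 CPM at 4 days. Pou5f1, the gene of Oct4, was at 256, 298 and 305 CPM at 2.5 days and 153, 148 and 147 CPM at 4 days, and Dnmt3b, a DNA methyltransferase, at 911, 846 and 865 CPM at 2.5 days and 356, 348 and 353 CPM at 4 days. Each was lower in all 4-day libraries (−0.94 ± 0.047 and −1.31 ± 0.039). Sox2, Nanog and Dnmt3l fell (−1.32, −1.06 and −1.91), and Klf4 rose by 0.90. Under CD1530 21 of 22 were lower (median −1.53), and 13 interactions were positive and 1 negative. Pou5f1, for instance, fell there from 151 ± 4.51 to 26.6 ± 1.59 CPM (mean ± SD, n = 3; interaction 1.56 ± 0.072).

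A set of primitive streak genes rose from low levels under AGN. Of 22 primitive streak and presomitic genes 9 were higher and 7 lower, with a median of 0.61. That median is uncertain, since it was 0.0148 without AGN replicate 1 at 2.5 days, with 8 higher and 5 lower. Of the 22 interactions 9 were positive and 2 negative. T, the gene of Brachyury (chr17:8434423-8442496, plus strand), was at 9.45, 9.63 and 8.84 CPM at 2.5 days and 27.7, 27.1 and 26.6 CPM at 4 days, 2.91-fold higher with no overlap (1.54 ± 0.074, edgeR adjusted p = 5.60e-21). Under CD1530 it fell from 2.05 ± 0.251 to 0.503 ± 0.14 CPM (mean ± SD, n = 3; interaction 3.55 ± 0.24, edgeR adjusted p = 5.15e-15). Fgf8, a ligand of the streak and presomitic mesoderm, was at 0.731, 1.43 and 1.11 CPM at 2.5 days and 5.81, 6.38 and 7.37 CPM at 4 days (2.67 ± 0.19, interaction 4.00 ± 0.44). Foxa2, expressed in streak, notochord and endoderm, was at 2.87, 2.29 and 1.59 CPM at 2.5 days and 13.3, 15.5 and 13.5 CPM at 4 days (2.56 ± 0.12), and Mixl1 at 0.542, 0.306 and 0.159 CPM at 2.5 days and 2.19, 1.87 and 1.72 CPM at 4 days (2.31 ± 0.26, or 3.01 without AGN replicate 1 at 2.5 days). Both had fallen in the step before (−1.99 and −1.02). Cer1 and Eomes rose by 1.40 ± 0.12 and 0.84 ± 0.097. Under CD1530 Eomes fell (−1.35 ± 0.13), but Foxa2 was higher at 4 days there as well. It was at 2.12, 2.29 and 1.89 CPM at 2.5 days and 3.99, 4.13 and 4.72 CPM at 4 days of CD1530. Among presomitic genes, Vrtn, Dll1, Dll3 and Lfng fell (−1.30, −0.98, −0.72 and −0.74), and Dll3 rose under CD1530 (1.53).

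**Figure D5:**
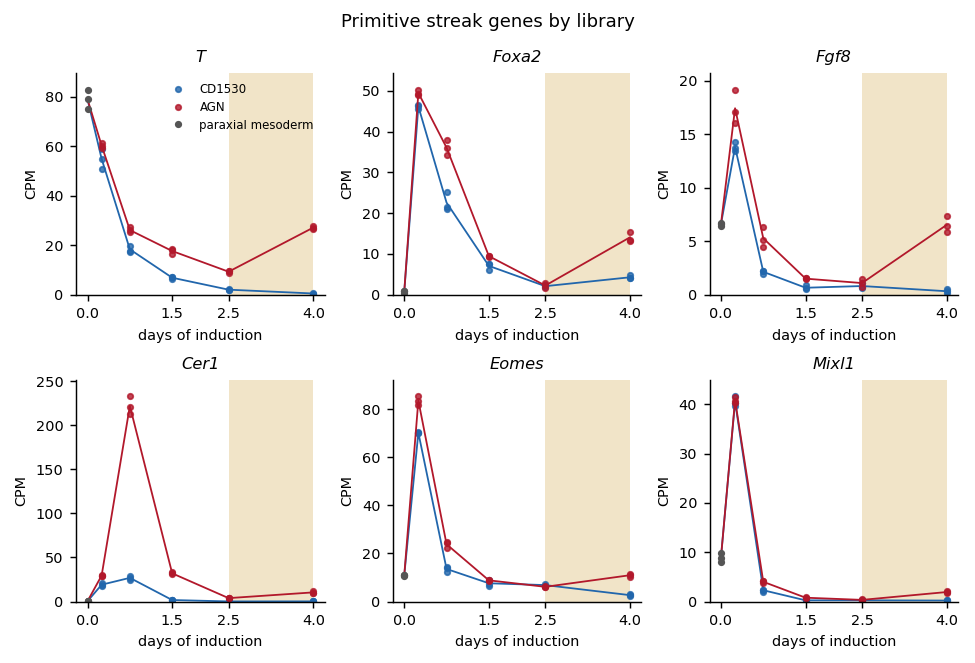
Levels in CPM (vertical axes, from 0) of 6 primitive streak genes in each library against days of induction, with AGN in red, CD1530 in blue, paraxial mesoderm in grey, lines through group means and the 2.5 to 4 day interval shaded. All 6 are higher at 4 days of AGN than at 2.5 days, T going from 9.31 ± 0.412 to 27.1 ± 0.542 CPM (mean ± SD, n = 3), and none of the 6 returns to its highest earlier group mean.

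Of the marker lists for other cell types, 7 had more members that fell than rose, and the fat list had equal numbers. Endothelial genes had 13 of 15 lower and 1 higher (median −1.03), with Pecam1 at 57.9, 60.6 and 59.3 CPM at 2.5 days and 28.5, 29.9 and 28.3 CPM at 4 days (−1.03 ± 0.057) and Cldn5 at −1.33. Their sum, Erg included, was 439.6 to 455 CPM at 2.5 days and 395 to 416 CPM at 4 days. Blood genes had 12 of 14 lower and 1, Runx1, higher (0.48), with the embryonic globins Hba-x and Hbb-bh1 at −2.52 and −2.23 and a sum of 130.2 to 138 CPM at 2.5 days and 93.5 to 103 CPM at 4 days. Neural genes had 9 of 15 lower and 1, Map2, higher (1.76), with Tubb3 and Pax6 at −1.35 and −2.32. Their sum was 245 to 259.6 CPM at 2.5 days and 141 to 142 CPM at 4 days. Under CD1530 9 neural genes were higher and 4 lower, but the sum fell there too. It was 336.4 to 347.6 CPM at 2.5 days and 232.6 to 243 CPM at 4 days. Muscle genes had 8 of 12 lower and none higher, with a sum of 44.4 to 47.1 CPM at 2.5 days and 27.1 to 32.3 CPM at 4 days, and the muscle regulators Myod1 and Myog were below 1 CPM in each AGN library. Of 8 neural crest and glial genes 5 were lower, of 11 epithelial genes 8, with Cdh1 and Epcam at −0.78 and −0.79, and of 15 endoderm genes 7 were lower and 3 higher. The epithelial sum was 775 to 793 CPM at 2.5 days and 499 to 505 CPM at 4 days. The endoderm sum was 520.3 to 552 CPM at 2.5 days and 393 to 402 CPM at 4 days. Both were above the sum of non-collagen cartilage matrix genes at 2.5 days (185 to 189 CPM) and below it at 4 days (725 to 747 CPM). Both were below the cartilage collagen sum at each time (1521 to 1561 and 4376 to 4569 CPM). The lists differ in their numbers of genes, so these sums do not rank cell types. The neural crest and glial sum was 213 to 222 CPM at 2.5 days and 172 to 174 CPM at 4 days. Fat genes had 3 of 8 higher and 3 lower. The part of these cells in the changes of other lists was not tested.

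Among genes with at least 50 counts on average and no overlap between groups, the 15 with the largest increases were Cytl1, Fam180a, Kazald1, Fat2, Eln, Sostdc1, Kcnd3, Alk, Col8a2, Tnn, Comp, Gdf10, Arsi, Ifi27l2a and Pappa2, with log2 fold changes of 3.00 or more, that of Cytl1 being the bound given above. Col8a2, a type VIII collagen chain, was at 46.4, 48.5 and 46.4 CPM at 2.5 days and 449, 450.4 and 445 CPM at 4 days (3.25 ± 0.055, edgeR adjusted p = 2.52e-36), and Ifi27l2a, an interferon-induced gene, at 12.5, 14.7 and 13.7 CPM at 2.5 days and 111, 112 and 116 CPM at 4 days (3.07 ± 0.077). Neither gene's groups came near each other. Alk, a receptor tyrosine kinase, rose by 3.26 ± 0.25, Tnn, tenascin W of developing skeleton, by 3.22 ± 0.19 and Pappa2, a protease of IGF-binding proteins, by 3.00 ± 0.17. The 15 with the largest decreases were Mep1b, Hba-x, Pnp2, Nr5a2, Rpl10l, Dppa3-ps, Pga5, Nr0b1, Dazl, Tcl1, Hbb-bh1, Dppa3, Serpina3m, Egr3 and Tex19.2, from −2.17 to −2.60. Mep1b, Serpina3m and Tex19.2 averaged 61.7, 56.3 and 51 counts, with 162, 139 and 150 counts in AGN replicate 1 at 2.5 days. That library may hold reads counted more than once, so their passing the limit of 50 counts may rest on it. Pnp2 was at 7.96, 2.85 and 3.18 CPM at 2.5 days and 1.19, 0.662 and 0.951 CPM at 4 days (−2.45 ± 0.37), highest in AGN replicate 1 at 2.5 days, and its change was −1.69 without that library. Several, among them Nr5a2, Nr0b1, Tcl1 and Dppa3, are known from pluripotent or germ cells. Reads of Dppa3 and its pseudogene copy Dppa3-ps, and of Rpl10l and its relatives, can be split between copies, so their single values are uncertain. Dazl, a germ cell RNA-binding gene, was at 11.7, 12.8 and 13.3 CPM at 2.5 days and 2.63, 2.47 and 2.61 CPM at 4 days (−2.28 ± 0.11), and under CD1530 it went from 36.4 ± 1.45 to 40.3 ± 1.51 CPM (mean ± SD, n = 3; interaction −2.43 ± 0.13).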

How the data were processed

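Mouse RNA was sequenced from 33 whole monolayer cultures, 3 biological replicates in each of 11 groups. Per the study's methods, the authors aligned paired reads to GRCm38 with STAR and deposited a raw count per gene and library from featureCounts. The annotation release and strand setting are not given in the sources used here, and the table lists 17120 genes above a low-count limit. From these counts, all libraries were fitted with edgeR 4.0.16 in R 4.3.3 (TMM scaling, robust quasi-likelihood test, Benjamini-Hochberg adjustment over all genes, threshold 0.05), with contrasts for the AGN step, the CD1530 step, their difference and the AGN step before. The low-count filter of edgeR removed no gene. DESeq2 1.42.0 and other settings were alternatives.

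The members and gene lists were chosen with earlier results of these data known. The genes of largest change were the 15 highest and 15 lowest log2 fold changes of genes that were called, averaged 50 counts or more over the 6 libraries and separated them without overlap, predicted genes aside. The 8 and 8 largest interactions were taken from genes whose interaction was called and that averaged 50 counts or more over 12 libraries. These also had no overlap between the AGN groups, predicted genes aside. Neither a called AGN step nor separate CD1530 groups were required for them. A floor of 3 counts per library bounded folds of genes near 0. The test was run on simulated data in which 200 genes changed over the AGN step, and it recovered 173 of them with 6 false calls. Far fewer genes changed there than were called in the real step, so this run does not check the scaling or error rate under such broad change. Exon overlaps came from GENCODE M21. Counting error sets the limit of precision for genes of few counts. The p-values set a change against the spread between replicate cultures. That spread was estimated over all 33 libraries, AGN replicate 1 at 2.5 days included.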

Additional observations from a re-analysis of the deposited data

Results flagged for a closer look

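The step from 2.5 to 4 days differed between AGN and CD1530, by the interaction term of edgeR's quasi-likelihood test, for 4591 genes. Of these, 235 were higher under AGN and lower under CD1530, and 217 were lower under AGN and higher under CD1530. For 645 genes both steps were increases and the one under AGN was larger, and for 446 it was smaller. For 481 genes both were decreases and the one under AGN was larger, and for 329 it was smaller. Only the AGN step was called for 1192 genes and only the CD1530 step for 993.

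Under the conditions on counts and overlap given with the methods, the 8 genes with the largest positive interactions were Sostdc1 (3.88), T (3.55), Hapln1 (3.53), Susd5 (3.36), Acan (3.34), Aqp1 (3.15), Gja4 (3.15) and Kazald1 (3.10). All 8 rose under AGN, with Gja4, the gene of connexin 37, at 3.36, 3.77 and 2.91 CPM at 2.5 days and 9.75, 8.13 and 8.79 CPM at 4 days under AGN, and going from 5.89 ± 0.506 to 1.73 ± 0.71 CPM under CD1530 (mean ± SD, n = 3). Kazald1, a secreted protein gene, was at 0.704, 1.22 and 1.06 CPM at 2.5 days and 12.9, 13.2 and 12.1 CPM at 4 days under AGN (3.74 ± 0.21). Susd5 was at 3.14, 3.87 and 4.45 CPM at 2.5 days and 17.7, 16.1 and 20.3 CPM at 4 days (2.27 ± 0.15). Their 4-day libraries lay above their 2.5-day libraries in every pair, but separate AGN groups were a condition for entering this list.

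The 8 with the largest negative interactions were Elavl4 (−2.80), Slc26a7 (−2.62), Rhox1 (−2.47), Dazl (−2.43), Rtn4rl2 (−2.39), Dll3 (−2.25), Slco2b1 (−2.20) and Slc5a11 (−2.16). Elavl4, Slc26a7, Rhox1 and Slco2b1 averaged 18, 11.2, 22.7 and 38.3 counts over the AGN libraries. They met the condition on counts only with their CD1530 libraries included. At 4 days of AGN, Elavl4 had 10, 5 and 7 counts, Slc26a7 6, 5 and 7, and Rhox1 1, 3 and 5. These lie near the floor of 3 counts or, for Rhox1, partly at or under it. The sizes and order of the interactions of Elavl4, Slc26a7 and Rhox1 are therefore uncertain. Elavl4, a neuronal RNA-binding protein gene, was at 1.38, 0.917 and 0.9 CPM at 2.5 days and 0.625, 0.301 and 0.416 CPM at 4 days and went from 2.7 ± 0.564 to 7.5 ± 0.256 CPM under CD1530 (mean ± SD, n = 3). Slc26a7, an anion transporter gene, was at 0.65, 0.56 and 0.741 CPM at 2.5 days and 0.375, 0.301 and 0.416 CPM at 4 days and went from 6.48 ± 0.761 to 22.5 ± 2.05 CPM under CD1530. The AGN steps of Slc26a7 and Slco2b1 did not pass the test (−0.82 ± 0.39 and 0.36 ± 0.23). Rhox1, a homeobox gene of the reproductive cluster on the X chromosome, was at 1.41, 1.78 and 2.12 CPM at 2.5 days and 0.0625, 0.181 and 0.297 CPM at 4 days and went from 6.35 ± 0.675 to 3.86 ± 0.305 CPM under CD1530. Dll3, a Notch ligand of presomitic mesoderm, was at 14.6, 14.3 and 11.6 CPM at 2.5 days and 9, 8.37 and 7.49 CPM at 4 days and went from 2.24 ± 0.567 to 6.56 ± 0.923 CPM under CD1530.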

How the results depend on the processing

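The 4 counts of called genes stayed within 1.5 times of their values under DESeq2's size factors, DESeq2 itself, library-size scaling, no filter, a minimum of 1 CPM, a fit without robust estimation, the likelihood ratio test, a fit on the compared libraries alone and thinning to the smallest library total. Which direction had more calls did change. A minimum log2 fold change of 1 in either direction left 1713 genes for the AGN step, 1651 for the CD1530 step, 819 for the interaction and 862 for the AGN step before. Leaving out 1 library gave 9416 to 9745 calls for the AGN step, 9068 to 9147 for CD1530, 4028 to 4265 for the interaction and 6204 to 6651 for the step before. DESeq2 called 9943 genes for the AGN step, 5416 higher and 4527 lower, and library-size scaling 4041 higher and 6406 lower against 5125 and 5043 with TMM. Library-size scaling gave 3610 higher and 6520 lower for CD1530, against 4686 and 5120, and 2461 higher and 5176 lower for the step before, against 3668 and 3535. For CD1530 DESeq2's size factors gave 5009 higher and 4779 lower and the compared libraries alone 5417 and 5203. On the compared libraries alone the interaction had 2430 positive and 3238 negative calls, 5668 in all, against 2410 and 2181, and its median over all genes was −0.0205 against 0.0224. Halving the counts of AGN replicate 1 at 2.5 days, an alternative chosen after seeing the data, gave 10009 calls for the AGN step, 6981 for the step before and 4478 for the interaction. Without that library 10 of 54 lists moved a count by more than 1 gene, and the largest change of a list median was 0.595, that of the primitive streak list. Of 4384 values of named genes under these alternatives 4355 kept their call, 21 lost it, 8 gained it and none reversed, with Egr1, Matn3 and Ucma not past the threshold under library-size scaling (0.11, 0.25 and 0.27). The main fit did not pair libraries by replicate number. Deviations of same-numbered AGN libraries from their group means correlated at 0.000524, −0.026 and 0.0194 over all genes. Such deviations carry the counting error of genes with few counts, so these values cannot exclude a pairing. A replicate block gave 10107 calls for the AGN step.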

Other observations

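Several gene groups outside the matrix and signalling lists also moved from 2.5 to 4 days of AGN. Of 25 axon guidance genes, which also direct migrating mesenchyme, 20 were higher and 1 was lower (median 0.58). Unc5d, a netrin receptor gene, was at 2, 1.89 and 2.54 CPM at 2.5 days and 10.2, 9.57 and 10.7 CPM at 4 days (2.26 ± 0.15), and it did not change past the threshold under CD1530 (0.036 ± 0.20, interaction 2.22 ± 0.26). Of the guidance genes 10 had a positive interaction and 6 a negative one. Epha3, Robo2, Sema3c and Slit3 rose by 1.61, 1.52, 1.34 and 1.24. Of 25 integrin, syndecan and glypican genes 15 were higher and 5 lower (3 lower without AGN replicate 1 at 2.5 days), with Itgbl1 at 6.23, 5.81 and 5.72 CPM at 2.5 days and 43.8, 44.3 and 44 CPM at 4 days (2.88 ± 0.10) and the collagen receptor gene Itga11 at 1.31. Contractile genes had 11 of 15 higher and 1 lower, among them Myocd, the smooth muscle coactivator, and its target Actg2 (2.22 and 2.08), and the lower member was Srf (−0.33). Of 14 YAP-related genes 11 were higher and 2 lower, with Ankrd1 and Ccn1 at 1.39 and 1.09.

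Genes for chondroitin sulfate, the glycan of aggrecan, had 14 of 24 higher and 2 lower (median 0.29). Papss2, which makes the sulfate donor, was at 25.2, 26.8 and 24.3 CPM at 2.5 days and 53.1, 52.3 and 55.4 CPM at 4 days (1.07 ± 0.065), with a like rise under CD1530 (1.05 ± 0.077). Csgalnact1 and Has3 fell (−0.64 and −1.39). Of 17 joint and interzone genes 9 were higher and 3 lower, and Wnt9a and Osr1, both early joint genes, rose less under AGN than under CD1530 (interactions −0.95 ± 0.13 and −0.96 ± 0.22), with 6 interactions of the list positive and 5 negative. Of 12 imprinted growth genes 7 were higher, with H19, Plagl1 and Peg3 at 1.33, 1.33 and 1.25, and 4 lower, with Peg10 at 273, 261 and 277 CPM at 2.5 days and 117, 123 and 116 CPM at 4 days (−1.19 ± 0.091) and little change under CD1530 (−0.11 ± 0.086, interaction −1.08 ± 0.12). Of the imprinted genes 8 had a positive interaction and 2 a negative one. Crosslinking and processing genes of collagen had 9 of 12 higher and 2 lower. Of 18 cadherins and protocadherins 5 were higher and 7 lower. Of 38 Hox genes 7 were higher, 2 lower and 29 did not pass the test.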
